A study of Homo sapiens with 2 samples.

Results

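Enzymes of nucleotide synthesis and salvage were followed through targeted single-cell RNA sequencing of SUM159, an established human line of triple-negative breast cancer (TNBC). They were TYMS, RRM2, DCK and HPRT1, chosen by name as 4 of the 373 gene symbols in the files, and all of them were measured in each population. The cells came from 2 samples, 1 grown attached in 2D and 1 grown as 3D spheroids in Matrigel, each loaded on a cartridge of its own. Each sample pooled 3 populations told apart by sample tags, which were paclitaxel-resistant cells, doxorubicin-resistant cells and untreated (treatment-naïve) cells, all with the genotype labelled Wt. Both resistant populations were single lines, selected from attached cells over a long period at rising drug doses, and the methods describe the doxorubicin steps as short exposures with recovery in medium free of the drug. Paclitaxel blocks the disassembly of microtubules, whereas doxorubicin, an anthracycline, poisons topoisomerase II and breaks DNA. The labels of the spheroid sample call the drug populations treated where the series design calls them resistant, and they are named resistant here. No population was replicated. Therefore no test was run, and the intervals in parentheses are 95% intervals that cover counting error only, not the spread between cultures. Those of levels and ratios also leave out the spread between cells.

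Cells obtain the building blocks of DNA in 2 ways. In de novo synthesis, thymidylate synthase (TYMS, chr18:657653-673578) methylates dUMP to make dTMP, the only route by which a cell makes thymidylate anew, and it is the target of 5-fluorouracil. Ribonucleotide reductase turns ribonucleotides into deoxyribonucleotides, and RRM2 (chr2:10122568-10211010) encodes its small, radical-bearing subunit, which is inhibited by hydroxyurea. In salvage, deoxycytidine kinase (DCK, chr4:70993649-71030914) phosphorylates deoxycytidine and activates cytarabine and gemcitabine. Hypoxanthine phosphoribosyltransferase (HPRT1, chrX:134460165-134500668) returns hypoxanthine and guanine to the purine pool and is often used as a housekeeping gene. TYMS and RRM2 are known for transcription that climbs as cells enter S phase. The positions are those of RefSeq on GRCh38.p14. TYMS overlaps ENOSF1 on the opposite strand, and RRM2 and HPRT1 have processed pseudogenes. The sources used here do not say how the panel's counting treated reads shared with these, so part of their UMIs is uncertain.

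The 250 bases before the transcription start of each member were read from RefSeq (GRCh38.p14, plus strand) as a description of their sequence. Capitals mark matches, on either strand, to 4 motifs known from promoters of growth and cell cycle genes. These were the E2F motif (TTTCCCGC, TTTGGCGC, TTTCGCGC or TTTGCCGC), the CCAAT box (CCAAT), the GC box (GGGCGG) and the CHR element (TTTGAA or TTCGAA). All 4 genes had a window. RRM2 has 2 listed starts, and the window before the downstream one is shown. The windows are chr18:657403-657652 for TYMS, chr2:10122489-10122738 for RRM2, chr4:70993399-70993648 for DCK and chrX:134459915-134460164 for HPRT1.
TYMS: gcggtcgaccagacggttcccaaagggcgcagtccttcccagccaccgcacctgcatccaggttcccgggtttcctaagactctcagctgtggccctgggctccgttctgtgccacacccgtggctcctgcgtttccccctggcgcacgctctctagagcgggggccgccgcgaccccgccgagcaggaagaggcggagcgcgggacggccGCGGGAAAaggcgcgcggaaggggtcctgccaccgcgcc
RRM2: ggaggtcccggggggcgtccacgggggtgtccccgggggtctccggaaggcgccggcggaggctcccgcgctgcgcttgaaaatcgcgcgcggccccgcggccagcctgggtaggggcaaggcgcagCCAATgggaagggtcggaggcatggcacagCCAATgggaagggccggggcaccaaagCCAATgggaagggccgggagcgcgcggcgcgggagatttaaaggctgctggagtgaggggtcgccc
DCK: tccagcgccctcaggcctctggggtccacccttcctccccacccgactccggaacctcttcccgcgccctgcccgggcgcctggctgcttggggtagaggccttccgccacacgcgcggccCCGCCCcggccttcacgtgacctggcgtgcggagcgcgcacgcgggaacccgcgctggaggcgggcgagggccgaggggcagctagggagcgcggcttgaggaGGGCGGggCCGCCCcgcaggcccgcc
HPRT1: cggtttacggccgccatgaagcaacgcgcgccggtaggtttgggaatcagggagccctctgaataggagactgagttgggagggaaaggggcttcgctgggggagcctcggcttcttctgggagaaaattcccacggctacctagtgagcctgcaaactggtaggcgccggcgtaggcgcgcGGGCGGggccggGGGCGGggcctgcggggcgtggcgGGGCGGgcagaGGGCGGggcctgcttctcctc

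The TYMS window held a single E2F match, on the minus strand, 39 to 32 bases before the start. Such a match was present in 2.79% of 35116 upstream windows of the same length. RRM2 had 3 CCAAT boxes in the window shown, beginning 123, 93 and 66 bases before its start, and 1 CCAAT box and 1 GC box in the window of its upstream start. A CCAAT box was found in 32.0% of all windows, and 2 or more in 9.53%. The salvage genes had GC boxes alone, 3 in DCK and 4 in HPRT1, against 42.6% of windows with at least 1 and 24.3% with 2 or more. None of the 4 genes had a CHR match, which 14.3% of windows did, and no match overlapped another motif. These matches describe the letters of the windows and were not tied to the expression data.

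The files held 18233 attached and 11889 spheroid cells, the attached number being above that given as pooled, and all 30122 were used. Spheroid populations had medians of 1538.5 to 2340.0 molecules (unique molecular identifiers, UMIs) per cell and totals of 8452574 to 11307759, against medians of 3653 to 3814 and totals of 21423102 to 29451390 in attached populations. Of the spheroid cells 4725 were below 1000 UMIs, against 1 attached cell. There were 264 cell numbers shared between the cultures, on separate cartridges, and 0 within a culture. Treatment-naïve cells with more than 5 UMIs of ABCB1, the drug efflux pump, numbered 89 (2.04%) in spheroid and 34 (0.641%) in attached culture. Of 7 listed mesenchymal and keratin markers of the line 6 were in the files, and all 6 were detected in every population. Their summed level was 155756 to 175573 CPM in the resistant populations, against 76105 and 99943 CPM in treatment-naïve attached and spheroid cells. The receptors ESR1 and ERBB2 summed to 517 to 1198 CPM, the most in paclitaxel-resistant attached cells. Markers of T and NK cells summed to 1.92 to 47.8 CPM, with CD3G at 0 in 5 of 6 populations, those of B cells to 3.89 to 7.52 CPM, VWF of endothelial cells to 0.407 to 2.48 CPM and those of myeloid cells to 88.6 to 706 CPM, the most in treatment-naïve attached cells. Their part in the results was not tested. Levels are given as CPM, the UMIs of a gene per 1000000 UMIs of its population.

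TYMS was the member that set resistant cells apart most widely. In attached culture it stood at 5359.8 CPM (5330.1 to 5389.5) in paclitaxel-resistant and 6023 CPM (5995 to 6051) in doxorubicin-resistant cells, against 794 CPM (782 to 806) in treatment-naïve cells. Spheroids had 2318 CPM (2286 to 2351) and 3450.3 CPM (3415 to 3486) in the same resistant populations, against 983 CPM (964 to 1001) in treatment-naïve spheroids. All 4 resistant populations were thus above both treatment-naïve ones. The fold was 6.75 (6.64 to 6.86) for paclitaxel and 7.59 (7.47 to 7.71) for doxorubicin resistance in attached cells, and 2.36 (2.30 to 2.42) and 3.51 (3.44 to 3.59) in spheroids.

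RRM2 followed the same order of populations in attached cells with a wider gap between the drugs. It stood at 2482 CPM (2462 to 2502) in paclitaxel-resistant and 4187 CPM (4164 to 4211) in doxorubicin-resistant cells, against 725 CPM (714 to 737) in treatment-naïve cells. In spheroids the populations lay closer together, at 1087 CPM (1065 to 1109) and 1430.0 CPM (1407 to 1453), against 771 CPM (754 to 787). The folds of RRM2 were 3.42 (3.36 to 3.48) and 5.77 (5.68 to 5.87) in attached cells, and 1.41 (1.37 to 1.45) and 1.86 (1.81 to 1.91) in spheroids.

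Of the salvage enzymes, HPRT1 was higher in each resistant population than in its treatment-naïve counterpart. Its level was 2449 CPM (2429 to 2469.6) and 3627 CPM (3606 to 3649) in paclitaxel- and doxorubicin-resistant attached cells, against 1322 CPM (1307 to 1337) in treatment-naïve cells. Spheroids had 2369 CPM (2337 to 2402) and 2722 CPM (2691 to 2754), against 1432 CPM (1410.4 to 1455). The resulting folds, 1.85 and 2.74 in attached cells and 1.65 and 1.90 in spheroids, were the least dependent on culture among the members. GAPDH, the single listed reference gene in the files, had folds of 1.01, 1.11, 1.00 and 1.25 in the same comparisons.

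DCK behaved differently from the others. It was highest in paclitaxel-resistant attached cells, at 894 CPM (882 to 906), followed by 665 CPM (656 to 675) in doxorubicin-resistant and 518 CPM (508 to 528) in treatment-naïve attached cells, which gave folds of 1.73 (1.69 to 1.77) and 1.28 (1.26 to 1.32). In spheroids the paclitaxel-resistant cells had 388 CPM (375 to 401), the doxorubicin-resistant cells 274 CPM (264 to 284) and the treatment-naïve cells 341 CPM (330.0 to 352). DCK was therefore 1.14-fold (1.09 to 1.19) higher in paclitaxel-resistant spheroids by CPM, although close to the treatment-naïve value as mean UMIs per cell, at 0.874 against 0.883 UMIs. In doxorubicin-resistant spheroids it was 1.24-fold (1.18 to 1.30) lower than in treatment-naïve spheroids, the single comparison of resistant with treatment-naïve cells in which a member was lower by CPM.

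**Figure D1:**
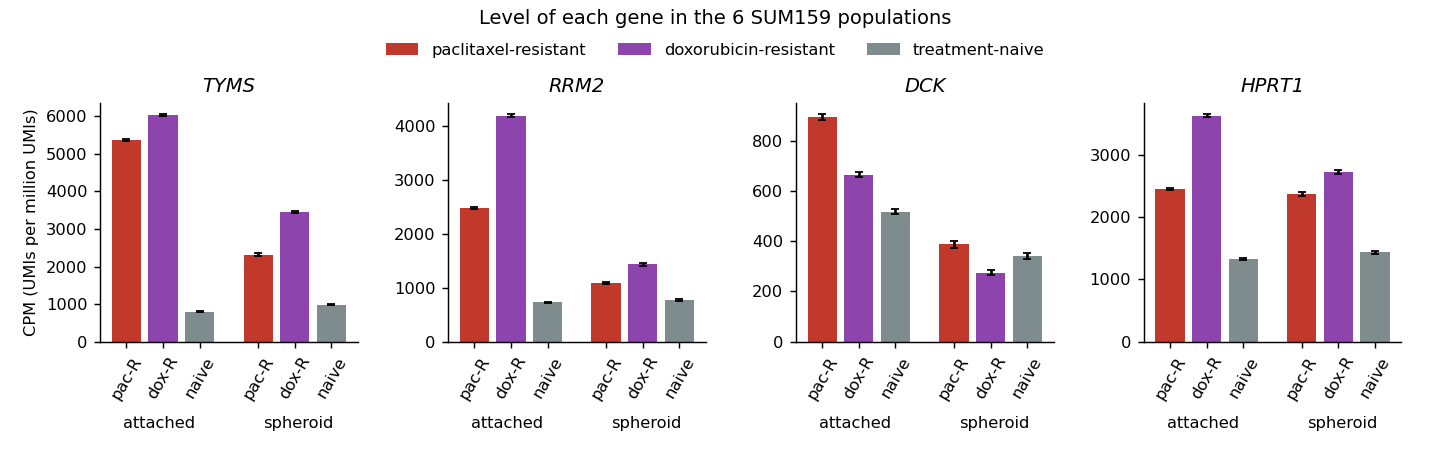
CPM (UMIs per 1000000 UMIs, axis from 0) of TYMS, RRM2, DCK and HPRT1 in paclitaxel-resistant (pac-R), doxorubicin-resistant (dox-R) and treatment-naïve (naive) cells, attached on the left and spheroid on the right of each panel. Bars are single populations and the whiskers are 95% counting intervals. TYMS ranges from 794 to 6023 CPM, and DCK is the gene whose doxorubicin-resistant spheroid bar, at 274 CPM, is the lowest of its 6.

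A gene passed the size rule with a fold of 2 or more and at least 50 UMIs in the higher population. In paclitaxel-resistant attached cells TYMS and RRM2 passed it upward (2 of 4 members), where 20.2% of all 262 measured genes did. In doxorubicin-resistant attached cells HPRT1 joined them (3 of 4, background 24.3% of 268 genes). In paclitaxel-resistant attached cells HPRT1 fell short at 1.85-fold, but it reached 2.02-fold by UMI totals not scaled to CPM. Leaving the 5 most abundant genes out of the totals also put it past a fold of 2. TYMS alone passed in spheroids, for paclitaxel (1 of 4, background 9.92% of 252) and for doxorubicin (1 of 4, background 16.5% of 260), and 0 members passed downward in these 4 comparisons. The median log2 fold over the members was 1.33, 1.99, 0.61 and 0.91 in these comparisons in the same order, beside -0.02, 0.13, 0.00 and 0.20 over all measured genes.

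The fold of every member over treatment-naïve cells was smaller in spheroids than in attached cells. For TYMS the attached fold was 2.86 times (2.78 to 2.94) the spheroid fold in paclitaxel resistance and 2.16 times (2.10 to 2.22) in doxorubicin resistance. RRM2 gave 2.43 times (2.34 to 2.51) and 3.11 times (3.01 to 3.21). DCK gave 1.52 times and 1.60 times. HPRT1 gave 1.12 times (1.09 to 1.15) and 1.44 times (1.41 to 1.48), and its folds in paclitaxel resistance were level, at 2.01 in attached cells and 2.00 in spheroids, when the 5 most abundant genes were left out of the totals. Culture and cartridge were the same split of the cells and cannot be told apart, nor can fewer cells expressing a gene and less RNA per cell in a summed level.

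**Figure D2:**
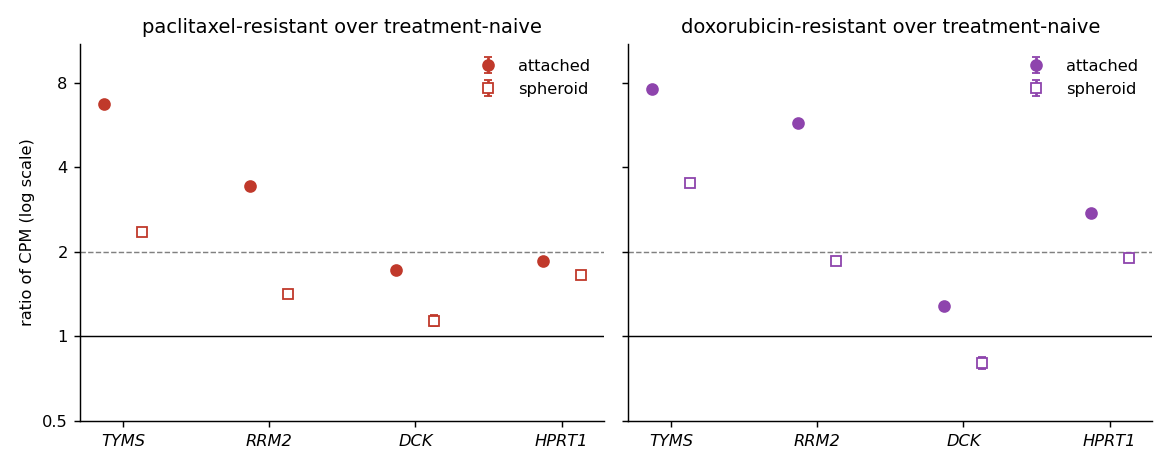
Ratio of CPM (log scale) of each gene in paclitaxel-resistant cells (left) and doxorubicin-resistant cells (right) over treatment-naïve cells of the same culture. Filled circles are attached cells, open squares spheroids, whiskers 95% counting intervals, the solid line a ratio of 1 and the dashed line the fold of 2 of the size rule. Each spheroid square lies below its attached circle, from 6.75 against 2.36 for TYMS in paclitaxel resistance to 1.85 against 1.65 for HPRT1.

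Comparing spheroids with attached cells of the same population, TYMS, RRM2 and DCK were lower in both resistant populations, whereas in treatment-naïve cells TYMS, RRM2 and HPRT1 were slightly higher. In paclitaxel-resistant spheroids TYMS was 2.31-fold (2.28 to 2.35), RRM2 2.28-fold (2.23 to 2.33) and DCK 2.30-fold (2.22 to 2.39) lower than in attached cells, so that 3 of 4 members passed the size rule downward against a background of 24.3%. HPRT1 was nearly level by CPM, with a ratio of 0.967 (0.952 to 0.983), and 1.02 when the 5 most abundant genes were left out of the totals. By UMI totals not scaled to CPM its ratio was 0.349, which passed the size rule downward. In doxorubicin-resistant spheroids RRM2 was 2.93-fold (2.88 to 2.98) and DCK 2.43-fold (2.33 to 2.52) lower (2 of 4, background 15.7%), with TYMS 1.75-fold and HPRT1 1.33-fold lower. By unscaled UMI totals, which follow the smaller spheroid totals, the ratios of RRM2, DCK, TYMS and HPRT1 there were 0.122, 0.148, 0.205 and 0.269, and 4 of 4 members passed. The doxorubicin-resistant populations held 10543081 UMIs in spheroids and 29451390 UMIs in attached culture. That count therefore includes the difference in totals, and no share over all genes is given beside it. In treatment-naïve spheroids 0 members passed by CPM. TYMS was 1.24-fold (1.21 to 1.27), RRM2 1.06-fold and HPRT1 1.08-fold higher than in attached cells, and DCK was 1.52-fold (1.47 to 1.58) lower. These directions hold for CPM. By unscaled UMI totals the treatment-naïve spheroids had less of each, with ratios of 0.653 for TYMS, 0.561 for RRM2, 0.572 for HPRT1 and 0.347 for DCK, which then passed the size rule.

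Between the drugs 0 members passed the size rule by CPM, while RRM2 passed it in attached cells by unscaled UMI totals, with a ratio of 2.12. Doxorubicin-resistant attached cells had 1.69-fold (1.67 to 1.70) more RRM2, 1.48-fold more HPRT1 and 1.12-fold (1.12 to 1.13) more TYMS than paclitaxel-resistant attached cells, but 1.34-fold (1.32 to 1.37) less DCK. The order of the drugs was the same in spheroids, where doxorubicin-resistant cells had 1.49-fold (1.46 to 1.51) more TYMS, 1.32-fold (1.28 to 1.35) more RRM2, 1.15-fold (1.13 to 1.17) more HPRT1 and 1.41-fold (1.34 to 1.49) less DCK.

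The share of cells in which a gene was detected, with 1 or more UMIs, was computed in all cells and after each cell had been thinned to 1000 UMIs, which left out 1587 paclitaxel-resistant, 1218 doxorubicin-resistant and 1920 treatment-naïve spheroid cells that were shallower and 1 attached cell. TYMS was detected in 91.2% of paclitaxel-resistant, 95.5% of doxorubicin-resistant and 69.7% of treatment-naïve attached cells. Thinned, the shares were 78.4% (77.3 to 79.5), 86.6% (85.7 to 87.4) and 38.1% (36.8 to 39.4). In spheroids it was found in 53.7%, 70.2% and 36.6% of cells in the same order, and in 57.9%, 73.5% and 32.3% after thinning. The resistant cells therefore had TYMS in more cells as well as more TYMS overall. Its median was 11 and 16 UMIs per cell in paclitaxel- and doxorubicin-resistant attached cells, against 1 UMI in treatment-naïve cells.

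RRM2 was likewise found in more cells of the resistant populations. After thinning it was detected in 48.5% (47.2 to 49.7) and 66.5% (65.4 to 67.6) of paclitaxel- and doxorubicin-resistant attached cells, against 33.6% (32.3 to 34.9) of treatment-naïve cells. The unthinned shares were 67.0%, 79.9% and 58.5%. The thinned spheroid shares, 30.2% and 38.7% against 25.7%, differed less, and the unthinned ones were 30.6% and 40.8%, against 27.5%. Without thinning, the 10% of cells richest in RRM2 held 53.2% and 38.4% of its UMIs in the attached resistant populations, against 53.3% in treatment-naïve cells, and 80.0% and 67.6% in resistant spheroids, against 84.4% in treatment-naïve spheroids. These shares also carry the spread in depth between cells. The same share for HPRT1 was 24.1% to 26.4% in attached and 38.0% to 46.2% in spheroid populations.

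HPRT1 was found in nearly every attached cell. Its unthinned shares were 98.8% and 99.5% in paclitaxel- and doxorubicin-resistant cells, against 95.6% in treatment-naïve cells, and thinning separated them into 87.4% and 95.1%, against 70.8%. In spheroids the unthinned shares of 67.6% and 76.8%, against 63.3%, became 83.2% and 87.5%, against 68.1%. DCK was detected after thinning in 49.9% and 43.1% of resistant attached cells, against 35.3% of treatment-naïve cells, and in 26.4% and 19.8% of resistant spheroid cells, against 21.7%. Its unthinned shares of 83.3%, 79.3% and 71.0% in attached cells and 35.0%, 36.0% and 31.1% in spheroids, given in the order paclitaxel-resistant, doxorubicin-resistant and treatment-naïve, had the thinned order in attached cells but not in spheroids. In doxorubicin-resistant spheroids the unthinned share of DCK was above that of treatment-naïve spheroids while its CPM and its thinned share were below, and their median depths were 2340.0 and 1538.5 UMIs. No cell type that should lack these genes was present, so the share due to free RNA could not be measured. The variance over the mean of thinned counts was 3.18 to 5.34 for TYMS and 2.51 to 5.65 for RRM2 across the populations, but 1.10 to 1.42 for DCK and 1.20 to 1.57 for HPRT1, where 1 would be random counting.

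**Figure D3:**
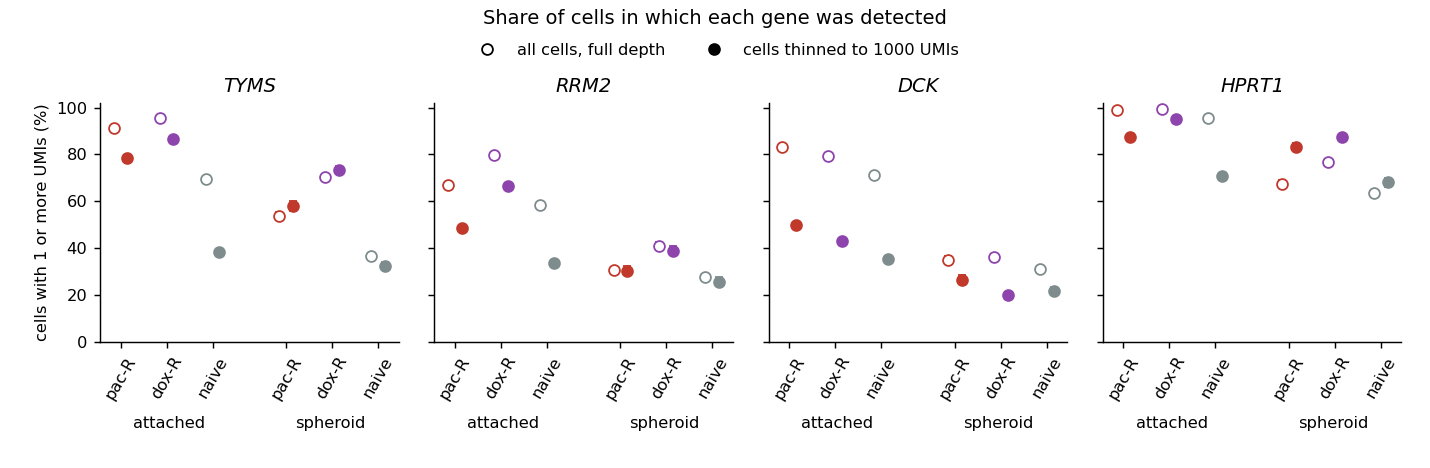
Share of cells (%) with 1 or more UMIs of each gene in the 6 populations, ordered as paclitaxel-resistant, doxorubicin-resistant and treatment-naïve. Open circles are all cells at full depth, filled circles are cells thinned to 1000 UMIs, and whiskers are 95% Clopper-Pearson intervals. Thinned TYMS shares run from 86.6% in doxorubicin-resistant attached cells to 32.3% in treatment-naïve spheroids.

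CENPA, the centromeric histone H3 variant whose mRNA accumulates in G2, was then used to divide the cells, those with 1 or more CENPA UMIs being called positive. Positive cells made up 41.4% of paclitaxel-resistant, 54.1% of doxorubicin-resistant and 38.9% of treatment-naïve attached cells, and 18.6%, 25.1% and 15.1% in spheroids. Called after thinning to 1000 UMIs, the shares in the same order were 28.2%, 34.9% and 28.0% in attached cells and 15.8%, 18.6% and 13.0% in spheroids. Positive cells at full depth were also deeper, with medians of 4284 to 4913 UMIs against 1085 to 3403 UMIs in negative cells. Within thinned cells of each population RRM2 was 3.81 to 6.61 times higher in CENPA-positive than in CENPA-negative cells, TYMS 2.26 to 3.34 times, DCK 1.69 to 2.96 times and HPRT1 1.11 to 1.58 times. All 4 genes were thus higher in the positive cells, RRM2 by most. Since CENPA mRNA accumulates in G2, CENPA-negative cells can include cells in S phase. The replication gene MCM6 had thinned ratios of positive over negative cells of 0.587 to 1.18 across the populations.

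In attached cells TYMS was higher in the resistant populations in both strata. Positive cells held a mean of 38.6 and 36.7 TYMS UMIs in paclitaxel- and doxorubicin-resistant cells, against 5.55 in treatment-naïve cells, with ratios of 6.95 (6.82 to 7.09) and 6.60 (6.48 to 6.73). Negative cells held 9.05 and 11.8 UMIs, against 1.71, with ratios of 5.28 (5.13 to 5.44) and 6.86 (6.67 to 7.06). CENPA-negative resistant cells therefore held more TYMS per cell than CENPA-positive treatment-naïve cells.

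RRM2 showed a different balance between the strata. Its mean in CENPA-positive attached cells was 20.5 and 28.0 UMIs in paclitaxel- and doxorubicin-resistant cells, against 6.40 in treatment-naïve cells, and in negative cells 2.34 and 5.20 UMIs, against 0.724. The ratios for paclitaxel resistance were alike, at 3.20 (3.14 to 3.27) in positive and 3.23 (3.08 to 3.38) in negative cells. For doxorubicin resistance the ratio was 4.38 (4.30 to 4.46) in positive and 7.17 (6.87 to 7.49) in negative cells, and 4.20 and 7.30 after thinning.

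The salvage enzymes were also higher in both strata of attached cells. HPRT1 averaged 12.9 and 18.4 UMIs in positive paclitaxel- and doxorubicin-resistant cells, against 6.63 in treatment-naïve cells, and 7.48 and 11.4 UMIs in negative cells, against 4.52. DCK averaged 5.67 and 3.78 UMIs in positive cells, against 3.52, and 2.05 and 1.62 UMIs in negative cells, against 1.19. Its ratio for doxorubicin resistance in CENPA-positive cells was the smallest of these, at 1.07 (1.04 to 1.10), and 1.05 (0.987 to 1.12) after thinning, an interval that holds 1.

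In spheroids the means per cell of TYMS remained higher in resistant cells. CENPA-positive cells held 17.0 and 24.3 TYMS UMIs in paclitaxel- and doxorubicin-resistant spheroids, against 10.03 in treatment-naïve spheroids, and negative cells 2.52 and 4.71, against 1.22. The ratios were 1.70 (1.65 to 1.75) and 2.42 (2.36 to 2.49) in positive cells and 2.07 (1.99 to 2.15) and 3.86 (3.73 to 3.99) in negative cells. HPRT1 was higher throughout, by 1.24 and 1.52 times in positive and 1.44 and 1.95 times in negative cells.

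RRM2 averaged 9.70 UMIs in CENPA-positive paclitaxel-resistant spheroid cells, against 9.50 in treatment-naïve ones, a ratio of 1.02 (0.986 to 1.06) whose interval holds 1, and 0.789 UMIs in negative cells, against 0.667. Doxorubicin-resistant spheroids had 12.2 and 1.23 RRM2 UMIs in positive and negative cells, with ratios of 1.29 (1.25 to 1.33) and 1.84 (1.75 to 1.94). After thinning, the ratio in positive paclitaxel-resistant cells was 1.17 (1.08 to 1.28). Thinning also changed the set of cells, keeping 585 of 699 positive paclitaxel-resistant and 556 of 657 positive treatment-naïve spheroid cells.

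DCK was 1.79-fold (1.68 to 1.91) lower in CENPA-positive doxorubicin-resistant spheroid cells than in CENPA-positive treatment-naïve ones, at 1.79 UMIs against 3.20, and 1.12-fold (1.04 to 1.21) lower in negative cells. In paclitaxel-resistant spheroids it was 1.25-fold (1.18 to 1.34) lower per cell in positive cells, at 2.56 UMIs against 3.20, and its ratio was 1.04 (0.967 to 1.11) in negative cells. After thinning these became 1.00 (0.862 to 1.17) and 1.25 (1.09 to 1.45).

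A member counted as higher in both strata where both ratios and their intervals lay above 1. These intervals take each UMI as independent and leave out the spread between cells, so calls on ratios close to 1 are uncertain. In attached cells that held for 4 of 4 members in paclitaxel resistance, where 43.6% of 241 genes measured in both strata did so, and for 4 of 4 in doxorubicin resistance (background 47.2% of 248). DCK dropped out of the latter in thinned cells, with ratios in positive cells of 1.05 (strata called before thinning) and 0.967 (0.897 to 1.04, called after). It also dropped out with 2 or more CENPA UMIs against 0, at 1.03 (0.996 to 1.06). In spheroids it held for TYMS and HPRT1 in paclitaxel resistance (2 of 4, background 19.8% of 222, or 3 of 4 with a background of 34.2% when CPM inside the stratum replaced the mean per cell) and for TYMS, RRM2 and HPRT1 in doxorubicin resistance (3 of 4, background 45.2% of 230). At least 2-fold more in both strata was reached by TYMS and RRM2 in paclitaxel-resistant attached cells (background 17%), by TYMS, RRM2 and HPRT1 in doxorubicin-resistant attached cells (background 20.6%), by 0 members in paclitaxel-resistant spheroids (background 4.05%) and by TYMS in doxorubicin-resistant spheroids (background 10%). The count of 0 belongs to the unscaled means per cell, since TYMS reached ratios of 2.05 in positive and 2.47 in negative cells of paclitaxel-resistant spheroids by CPM inside the stratum, and 2.13 and 2.28 in thinned cells.

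**Figure D4:**
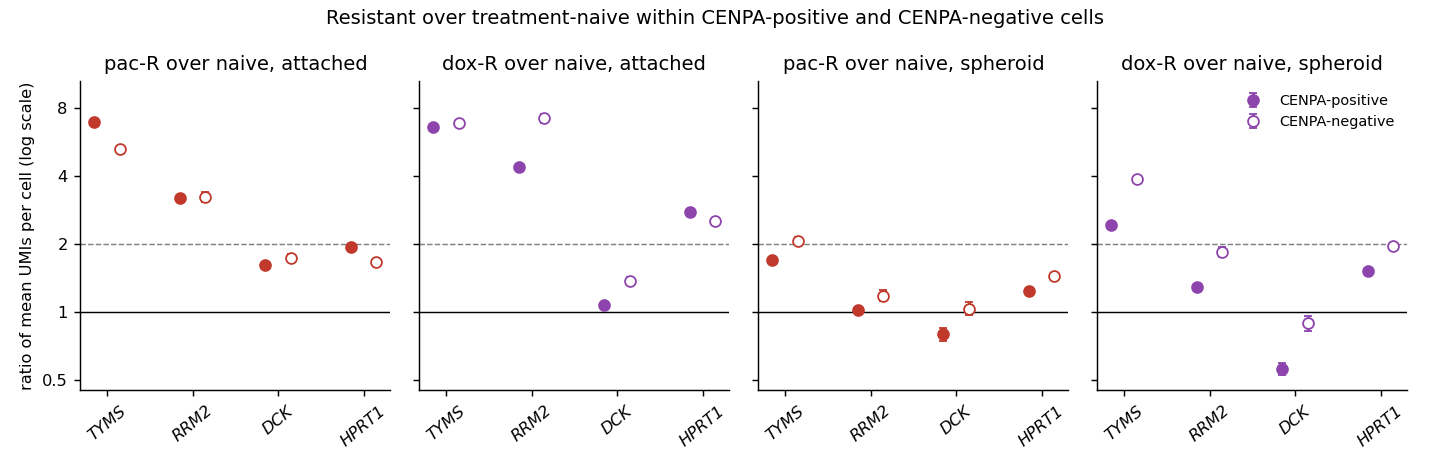
Ratio of mean UMIs per cell (log scale) of resistant over treatment-naïve cells, within CENPA-positive (filled) and CENPA-negative (open) cells, for paclitaxel (pac-R) and doxorubicin (dox-R) resistance in attached and spheroid culture. Whiskers are 95% counting intervals, the solid line is a ratio of 1 and the dashed line a ratio of 2. The ratios in attached cells lie above 1 throughout, up to 7.17 for RRM2, whereas DCK in doxorubicin-resistant spheroids lies below 1 in both strata.

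Other genes of the cycle divided the cells with a partly different outcome. MCM6 is a subunit of the replicative helicase and UBE2C a ubiquitin-conjugating enzyme of mitotic exit. By UBE2C, the members higher in both strata were those found by CENPA in 4 of 4 comparisons. By MCM6, DCK dropped out in attached cells, its ratio of mean UMIs in MCM6-negative cells being 1.01 in paclitaxel resistance and 0.664 in doxorubicin resistance. As CPM inside the stratum these were 1.25 (1.16 to 1.35), which puts DCK back among the members higher in both strata for paclitaxel, and 0.842. By either measure TYMS, RRM2 and HPRT1 were higher in both MCM6 strata of attached cells. In paclitaxel-resistant spheroids divided by MCM6, 1 of 4 members, TYMS, was higher in both strata as mean UMIs per cell and 4 of 4 as CPM. No share over all genes is given for MCM6 strata, so these counts cannot be read as particular to the members. With CENPA strata the share over all genes in this comparison was 19.8% by mean UMIs per cell and 34.2% by CPM. MCM6 itself was 4.49-fold and 6.28-fold higher in paclitaxel- and doxorubicin-resistant attached cells than in treatment-naïve ones, and 1.74-fold and 2.08-fold higher in spheroids.

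TYMS and RRM2 climbed with the number of CENPA UMIs in the cell up to 2 in all 6 populations, and with 3 or more some levels were higher again and some lower. TYMS stood at 2613, 4689, 7750.2 and 9482 CPM in paclitaxel-resistant attached cells with 0, 1, 2 and 3 or more CENPA UMIs, at 3401, 6215, 8544 and 7859 CPM in doxorubicin-resistant attached cells, and at 468, 866, 1737 and 1238 CPM in treatment-naïve attached cells. RRM2 in the same classes was at 674, 2118, 4372 and 5129 CPM, at 1503, 4157, 6396 and 6197 CPM, and at 198, 535, 1319 and 1598 CPM. Both resistant populations lay above the treatment-naïve one in each class for these 2 genes. HPRT1 varied less across the classes in attached cells, between 2161 and 2863 CPM in paclitaxel-resistant, 3302 and 3886 CPM in doxorubicin-resistant and 1233 and 1464 CPM in treatment-naïve cells. In spheroids it spanned 2127 to 2848 CPM and 2420.0 to 3195 CPM in the resistant populations, against 1237 to 2056 CPM in treatment-naïve cells.

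For DCK the order of the populations changed with the class in some cases. In attached cells with 3 or more CENPA UMIs it was at 1292.5 CPM in paclitaxel-resistant and 798 CPM in doxorubicin-resistant cells, against 848 CPM in treatment-naïve cells, whereas with 0 CENPA UMIs it was at 592 and 469 CPM, against 324 CPM. Paclitaxel-resistant attached cells were thus above treatment-naïve cells in both of these classes. In spheroids with 3 or more CENPA UMIs its levels were 587 and 403 CPM, against 691 CPM, and with 0 CENPA UMIs 274 and 198 CPM, against 221 CPM. Doxorubicin-resistant spheroids lay below treatment-naïve ones in all 4 classes.

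**Figure D5:**
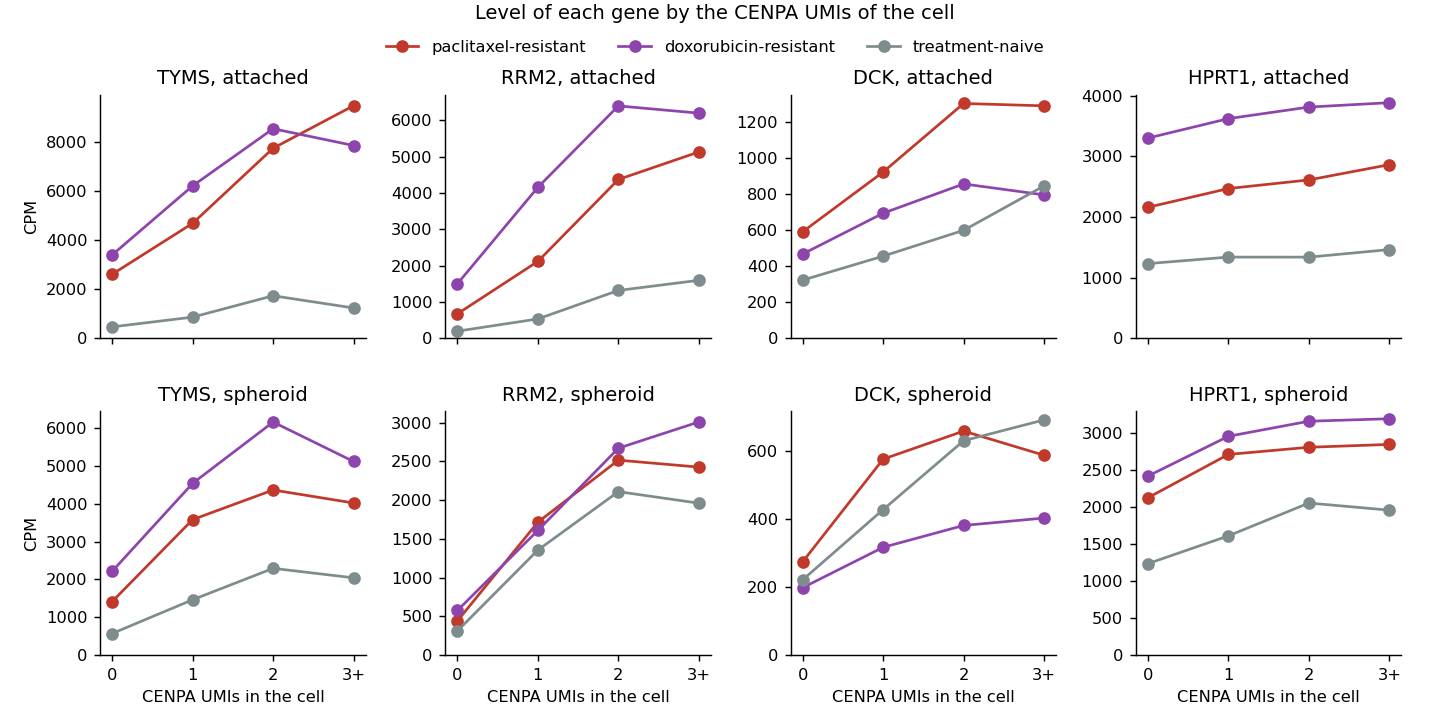
CPM of each gene in cells with 0, 1, 2 and 3 or more (3+) CENPA UMIs, in attached (top) and spheroid (bottom) cells. Each line joins the classes of one population and each axis starts at 0. TYMS of paclitaxel-resistant attached cells goes up to 9482 CPM while that of treatment-naïve attached cells does not pass 1737 CPM, and the DCK line of treatment-naïve cells crosses that of doxorubicin-resistant attached cells and that of paclitaxel-resistant spheroids.

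The share of CENPA-positive cells at full depth differed between populations, so the resistant means were also reweighted to the treatment-naïve share, a step chosen after the data had been seen. The ratio of mean TYMS UMIs per cell was then 6.41 for paclitaxel and 6.69 for doxorubicin resistance in attached cells, beside 6.64 and 7.87 before, and 1.85 and 3.01 in spheroids, beside 2.05 and 3.78. For RRM2 it was 3.21 and 4.80 in attached cells, beside 3.36 and 5.99, and 1.07 and 1.44 in spheroids, beside 1.23 and 2.00. HPRT1 changed from ratios of 1.82, 2.85, 1.44 and 2.05 to 1.80, 2.65, 1.36 and 1.78 over the 4 comparisons in that order. DCK had 1.65, 1.18, 0.906 and 0.711 after reweighting, the last of these beside 0.867 before.

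Within single thinned cells TYMS and RRM2 went together. Over the cells of a population their correlation was 0.646 and 0.651 in paclitaxel- and doxorubicin-resistant attached cells, against 0.419 in treatment-naïve cells, and 0.522 and 0.550 in resistant spheroids, against 0.606. Each was among the 2 closest of 170 to 177 compared genes of the other in the 4 resistant populations and in treatment-naïve spheroids, beside MYBL2, a transcription factor of proliferating cells. Both genes were detected in 45.8% and 63.2% of paclitaxel- and doxorubicin-resistant attached cells, against 17.6% of treatment-naïve cells. The shares that independent detection would give were 38.0% and 57.6%, against 12.8%. Correlations to TYMS were lower for DCK, at 0.227 to 0.342, and for HPRT1, at 0.129 to 0.263. Even so, TYMS or RRM2 was the closest compared gene of DCK in all populations but treatment-naïve attached cells. TYMS was also among the 2 closest of HPRT1 in both resistant attached populations and in doxorubicin-resistant and treatment-naïve spheroids. Thinned counts of DCK and HPRT1 varied little beyond random counting, so the lower correlations cannot tell whether their tie was looser. These correlations describe cells of 1 library each and carry no test.

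Across the 6 populations the genes whose log2 CPM was most like that of TYMS were ABCG2, a drug efflux pump, KRT8, a luminal keratin, and MCM6, with Pearson r of 0.984, 0.983 and 0.978. The closest to RRM2 were CDC7, a kinase that fires replication origins, UBE2T, a ubiquitin-conjugating enzyme of the Fanconi pathway, and MYBL2, at 0.999, 0.987 and 0.985. HPRT1 was closest to CDCA7, ABCB1 and MCM6, at 0.973, 0.964 and 0.958. DCK had other neighbours, which were AXIN2, a target of Wnt signalling, SLIT2, a guidance ligand, and MMP2, a gelatinase, at 0.963, 0.934 and 0.913. Each r rests on 6 populations and a choice among 212 genes. Among the members r was 0.932 for TYMS with RRM2 and 0.945 for TYMS with HPRT1, but 0.439 for TYMS with DCK and 0.236 for DCK with HPRT1.

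Resistant cells without ABCB1 could be compared with those that had more than 5 ABCB1 UMIs. In attached paclitaxel-resistant cells TYMS stood at 5634 CPM in the 3944 ABCB1-high cells and at 4738 CPM in the 409 cells with 0 ABCB1 UMIs, and in doxorubicin-resistant cells at 6101 and 5779.5 CPM, against the 794 CPM of treatment-naïve attached cells. The thinned ratios of ABCB1-high over ABCB1-zero cells ran from 1.01 to 1.28 over the members in attached cells and from 1.20 to 1.86 in spheroids. Thinning kept 359 of 1498 ABCB1-zero cells in paclitaxel-resistant and 497 of 1237 in doxorubicin-resistant spheroids, with medians of 2274 and 2753 UMIs, beside medians of 4220.0 and 4205 UMIs in the ABCB1-high cells kept.

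Of 44 genes listed for nucleotide metabolism, 5 were in the files, and the single one beside the members was PHGDH, which opens the serine pathway that feeds one-carbon units to thymidylate synthesis. It went the other way in attached cells, at 2165 and 1940.2 CPM in paclitaxel- and doxorubicin-resistant cells, against 6703 CPM in treatment-naïve cells, which is 3.10-fold (3.06 to 3.13) and 3.45-fold (3.42 to 3.49) lower. In spheroids it was at 822 and 893 CPM, against 743 CPM. PHGDH was 9.02-fold (8.82 to 9.22) lower in treatment-naïve spheroids than in treatment-naïve attached cells.

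Genes of the cell cycle gave the setting for these levels. In the G1/S and replication list, which holds no member, 5 of 9 measured genes passed the size rule upward in paclitaxel-resistant and 9 of 9 in doxorubicin-resistant attached cells, but 0 of 9 and 4 of 9 in the spheroids, and 0 passed downward. Over all measured genes the shares passing upward were 20.2%, 24.3%, 9.92% and 16.5% in that order. CCNE2, a cyclin of S phase entry, and MCM6 led in attached cells at 4.51-fold and 4.49-fold for paclitaxel and 6.83-fold and 6.28-fold for doxorubicin, while RFC4, a clamp loader subunit, was at 1.53-fold and 2.18-fold. CDCA7 led in spheroids, at 1.81-fold and 3.04-fold. In the G2/M and mitosis list 2 of 16 and 4 of 16 passed upward in paclitaxel- and doxorubicin-resistant attached cells, led by ANLN at 2.37-fold and 3.24-fold, and 1 of 16 and 4 of 16 in spheroids, led by UBE2C at 2.12-fold and 2.56-fold. As shares of the list these are 12.5%, 25%, 6.25% and 25%. By the size rule the G2/M list was thus near or below the shares over all genes except in doxorubicin-resistant spheroids. Its median log2 fold was nevertheless higher than that of all measured genes, at 0.43, 0.69, 0.50 and 0.87, against -0.02, 0.13, 0.00 and 0.20, and 0 of its genes passed downward. The G1/S list had medians of 1.14, 1.78, 0.29 and 0.76. CENPA was 1.29-fold and 1.18-fold higher in attached and 1.40-fold and 1.67-fold higher in spheroid resistant cells. How far the cell cycle accounts for the levels of TYMS, RRM2, DCK and HPRT1 was not tested. The strata above describe the cycle in part only, since CENPA-negative cells can include cells in S phase.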

How the data were processed

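Targeted single-cell libraries of the 6 populations had been made on the BD Rhapsody platform with the Onco-BC Panel. The authors deposited, per population, a matrix of raw counts (UMIs of each panel gene in each cell). Per the methods, reads were quality filtered on a cloud platform and their molecular identifiers corrected for errors (RSEC) before molecules were assigned to putative cells. The submitters' processing notes name hg38. Filters on cells before deposit and the handling of multiplets are not given in the sources used here. The study kept fewer attached cells after a filter on low counts whose threshold it does not state. All barcodes were used here and no doublet caller was run. The 1% of cells with the most UMIs were left out in an alternative. Populations were assigned from file names, since the labels do not tie tags to files.

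UMIs were summed over the cells of a population, as in the study, and scaled to CPM. Ratios have exact conditional binomial intervals, CPM values exact Poisson intervals and shares Clopper-Pearson intervals, all at 95%. Strata used mean UMIs per cell. The size rule took the fold of 2 and minimum of 50 UMIs from the study's methods, asked here of the higher population. Cells were thinned without replacement (seed 41). Interval coverage was checked on simulated population totals that held counting error alone. That check cannot show how the intervals fare with the spread between cells. Motifs were searched in RefSeq upstream windows of 250 bases. The named genes were the 4 members, measured genes of the nucleotide list, the 3 genes most like each member over the populations, the stratum genes, ABCB1, and the extremes of the cycle lists, of which the leading ones are printed. GAPDH came from a reference gene list and the marker genes from cell type lists. The members and lists were chosen with earlier results of these data known. Without replicates no test was possible. Alternatives covered scaling, depth, filters on cells, thresholds and the stratum gene. Python 3.11.15, NumPy 2.4.6, SciPy 1.17.1, pandas 2.3.3 and matplotlib 3.10.9 were used.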

Additional observations from a re-analysis of the deposited data

Results flagged for a closer look

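DCK differed in direction between the cultures in doxorubicin resistance. Its CPM in doxorubicin-resistant cells was 0.805 times that of treatment-naïve cells in spheroids and 1.285 times in attached cells. The spheroid fold was 0.627 times (0.594 to 0.661, counting error only) the attached fold, and with 1 population of each kind the difference was not tested.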

How the results depend on the processing

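With a fold of 1.5 in place of 2, the members past the size rule upward numbered 4 in paclitaxel-resistant attached cells, 2 in paclitaxel-resistant spheroids and 3 in doxorubicin-resistant spheroids, where 29.8%, 18.3% and 30.8% of all measured genes passed that fold. In paclitaxel-resistant spheroids the count was 0 with unscaled UMI totals and 0 with CPM computed per cell and then averaged, which gives shallow cells equal weight. TYMS, the 1 member counted there, then had folds of 1.76 and 1.85. In doxorubicin-resistant spheroids the count was 2 with mean UMIs per cell and 3 with totals that leave out the 5 most abundant genes, a scaling that multiplied each fold by 1.16 there and by 1.21 in paclitaxel-resistant spheroids. The count of members higher in both CENPA strata in paclitaxel-resistant spheroids was 1 with strata by MCM6 and, chosen after seeing the data, 4 with strata by MCM6 and CPM inside the stratum. The alternatives of the remaining counts were added after seeing the data. The count of members at least 2-fold higher in both strata was 1 in paclitaxel-resistant attached cells, against 2 reported, with strata by UBE2C, by MCM6 and by UBE2C with CPM inside the stratum. In paclitaxel-resistant spheroids it was 1, against 0 reported, with CPM inside CENPA or MCM6 strata and in thinned cells with strata called before or after thinning. Unscaled totals put 4 members past the size rule downward in doxorubicin-resistant spheroids over attached cells, against 2 reported, and 1 in treatment-naïve spheroids over attached cells, where mean UMIs per cell and a fold of 1.5 (37.9% of all genes) also gave 1, against 0 reported. For doxorubicin- over paclitaxel-resistant attached cells, unscaled totals and a fold of 1.5 (21.1% of all genes) each gave 1 member upward, against 0 reported. Under the other alternatives run these counts of members stayed within 1.5 times the reported ones. That margin includes HPRT1 as a further member upward in paclitaxel-resistant attached cells with unscaled totals. Counts printed here without a share over all genes cannot be read as particular to the members. Over 160 recomputed folds of single members over treatment-naïve cells, treatment-naïve spheroids over attached cells included, 68 moved by less than their counting interval and 92 by more, and 0 of those past the size rule changed direction. TYMS kept a fold between 6.31 and 7.38 in paclitaxel-resistant and between 7.36 and 10.4 in doxorubicin-resistant attached cells. DCK in paclitaxel-resistant spheroids ran from 0.851 with unscaled totals to 1.38 without the 5 most abundant genes. No paired analysis was possible because each population was measured once. Depth limits spheroids most, where 4725 of 11889 cells were below 1000 UMIs.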

Other observations

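In the spheroid cells below 1000 UMIs the members were still counted. TYMS stood there at 1297 and 1854 CPM in paclitaxel- and doxorubicin-resistant spheroids, against 1012 CPM in treatment-naïve spheroids, on 556, 697 and 518 UMIs. In spheroid cells of at least 1000 UMIs it stood at 2373 and 3509 CPM, against 981 CPM. HPRT1 in the shallow cells was at 1623 and 1851 CPM, against 1372 CPM, RRM2 at 690.2 and 875 CPM, against 676 CPM, and DCK at 261 and 186 CPM, against 250.1 CPM.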
